A study of Pinus pinaster with 14 samples.

Results

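The hypocotyl was compared with the older root in seedlings of the conifer Pinus pinaster (maritime pine), using 4 of the 14 libraries of the series. The hypocotyl was represented by its cortex and its vascular tissue, and the root by its cortex and its vascular tissue, each a single library of tissue cut out of frozen sections by laser. Libraries were chosen by their labels and set against each other within tissue, cortex with cortex and vascular with vascular. All 4 came from seedlings of the Oria provenance, grown in soil in a culture chamber and harvested 1 month after the shoots emerged, with no treatment or mutation. RNA above an integrity limit was amplified as cDNA, since the cut tissue gave little of it, and sequenced by GS-FLX+ pyrosequencing. The developing root and root meristem libraries were left out of the comparison and serve below, with 7 shoot libraries, as measurements that did not choose its transcripts. Which seedlings went into which library is not stated, and libraries may have seedlings in common. The 2 tissues stand in for replicates of an organ. In cut tissue a lower level can mean fewer cells of a type or less RNA per cell, which cannot be told apart here.

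The hypocotyl is the stem below the cotyledons. It joins the root through a transition zone in which the vascular strands change their arrangement, and its cortex is exposed to light and can green, whereas the root takes up water and ions in the dark. In both organs the cortex is ground tissue for storage and defence, and the vascular tissue carries water in xylem and assimilates in phloem. The root label without the word developing is taken here as the older root.

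The deposited identifiers of transcripts are not paired with gene names in the sources used here. Function is therefore not given for any transcript, and the lists of photosynthesis, suberin, lignin, uptake, nitrogen and defence genes and of cell type markers could not be applied. For the same reason the labelled tissues could not be checked against marker genes. Values are normalised reads, that is counts brought to a common library size (CPM) after that size was adjusted by the trimmed mean of M values (TMM), a factor that sets the bulk of transcripts level between libraries.

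The hypocotyl cortex library held 519134 reads and the hypocotyl vascular library 746901, against 578781 reads in root cortex and 1536389 in root vascular tissue. A single read was worth 3.76 normalised reads in hypocotyl cortex and 1.12 in hypocotyl vascular tissue, against 2.96 in root cortex and 1.42 in root vascular tissue, so low values are coarsest in the cortex libraries. After each library was thinned to 500000 reads, 12994 transcripts were detected in hypocotyl cortex and 15050 in hypocotyl vascular tissue, against 13093 in root cortex and 10480 in root vascular tissue. The hypocotyl vascular library stood apart in 1 respect. All 878 transcripts with at least 200 reads in young needle vascular tissue also had reads there, and the 5th percentile of its reads per needle read was 0.202. Taking that proportion off removed 22.5% of the hypocotyl vascular reads, and the counts of transcripts 4-fold apart, those with reads in a single organ and the directions in other libraries are also given without those reads. Other values of this library include them. Whether reads passed between the libraries was not tested.

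Reads of the cortex libraries were held by few transcripts, and most of all in the root. The 10 most abundant transcripts took 36.7% of reads in hypocotyl cortex and 14.8% in hypocotyl vascular tissue, against 51.4% in root cortex and 27.0% in root vascular tissue. A total of 41 transcripts in hypocotyl cortex and 439 in hypocotyl vascular tissue held 50% of the reads, against 9 in root cortex and 189 in root vascular tissue. In all 4 libraries unigene208496 ranked first. It took 11.2% of reads in hypocotyl cortex (95% Wilson interval 11.1 to 11.3%) and 2.71% in hypocotyl vascular tissue (2.67 to 2.74%), against 31.0% in root cortex (30.9 to 31.1%) and 14.9% in root vascular tissue (14.8 to 14.9%). Both hypocotyl shares lay below both root shares, and the hypocotyl pith, another hypocotyl tissue outside the comparison, stood at 4.91% (4.87 to 4.95%). Developing root cortex stood at 8.05%, developing root vascular tissue at 4.56% and the root meristem at 3.85%. These also lay below hypocotyl cortex, so the high share was that of the older root libraries and not of all root libraries. The mean log2 difference of unigene208496, hypocotyl minus root, was -2.56 ± 1.00 SE (limma adjusted p = 0.384, not past the threshold). Intervals cover counting error only, since amplified cDNA reads are not independent molecules.

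Among the 100 most abundant transcripts of each library, hypocotyl cortex shared 42 with root cortex and hypocotyl vascular tissue shared 33 with root vascular tissue. Within organs, the cortex and vascular lists shared 27 in the hypocotyl and 40 in the root. Hypocotyl vascular tissue shared 32 with root cortex, and hypocotyl cortex shared 29 with root vascular tissue, so pairs with neither organ nor tissue in common were not below all others. A set of 16 transcripts was in all 4 lists.

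The test of hypocotyl against root called no transcript. Of 9065 transcripts with at least 10 normalised reads in at least 2 of the 4 libraries, 0 (0%) had a Benjamini-Hochberg adjusted p under 0.05 in limma on log2(value + 5), with tissue as a term and the spread shared with young needles and cotyledons. The lowest adjusted p was 0.190, and 860 transcripts were at an unadjusted p under 0.05, where 453 make up 5% of those tested. Of the 860, 335 were higher and 525 lower in the hypocotyl. This lean depended on the setting. It was 321 higher and 304 lower with library totals alone, and 511 and 487 with only the 4 libraries in the fit. Median-of-ratios scaling gave 290 and 474, and quantile normalisation 297 and 547. In the test as first described, the median standard error was 1.41 on the log2 scale, which limited what 2 libraries against 2 could show. edgeR's quasi-likelihood test on the recovered reads called 3 transcripts (0.0331% of those tested), 2 higher and 1 lower in the hypocotyl, and 441 had an unadjusted p below 0.05. With DESeq2 the count was 182 (2.01%), and 829 had an unadjusted p below 0.05. Of its 98 higher calls 93, and of its 84 lower calls 66, also stood at least 4-fold apart the same way in both tissues. Calls and fold differences compare the same 4 libraries, so this overlap is not independent support for the calls. Without the root vascular library limma called 134 transcripts, 5 higher and 129 lower in the hypocotyl, with root cortex as the only root library and its spread assumed to be that of the other organs. Organ and tissue were both terms of the fit. The p-values therefore rest on how unevenly the tissues differed from organ to organ, together with the noise of single libraries. They do not measure the spread between seedlings.

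Because no transcript passed, differences were described by a rule of size, with no test: a value + 5 at least 4 times apart in the cortex pair and again, in the same direction, in the vascular pair. Differences on this log2(value + 5) scale understate the change of low transcripts in general. A 0 in a cortex library, however, allows up to 11.3 normalised reads in hypocotyl cortex and 8.88 in root cortex (3 reads), so a cortex value can pass the rule where the ratio the reads allow is smaller. By this rule 435 transcripts (4.80% of 9065) were higher and 513 (5.66%) lower in the hypocotyl than in the root in both tissues. A further 544 (6.00%) were at least 4-fold apart in opposite directions in the tissues. With no value added and anything under 3 reads set at 3 reads, an alternative chosen after seeing the data, 285 of the 435 and 302 of the 513 were still 4-fold apart in both tissues. After the shared reads were taken off hypocotyl vascular tissue, 395 were higher, 534 lower and 481 opposite. The split by direction depended on the scaling between libraries. With library totals alone, 388 were higher and 233 lower. The median vascular difference was 1.13 on the log2 scale with totals alone and 0.17 with the deposited scaling. The median cortex difference was -0.34 with totals alone and -0.28 as deposited. With each pair centred on its own median, 436 were higher and 456 lower.

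**Figure D1:**
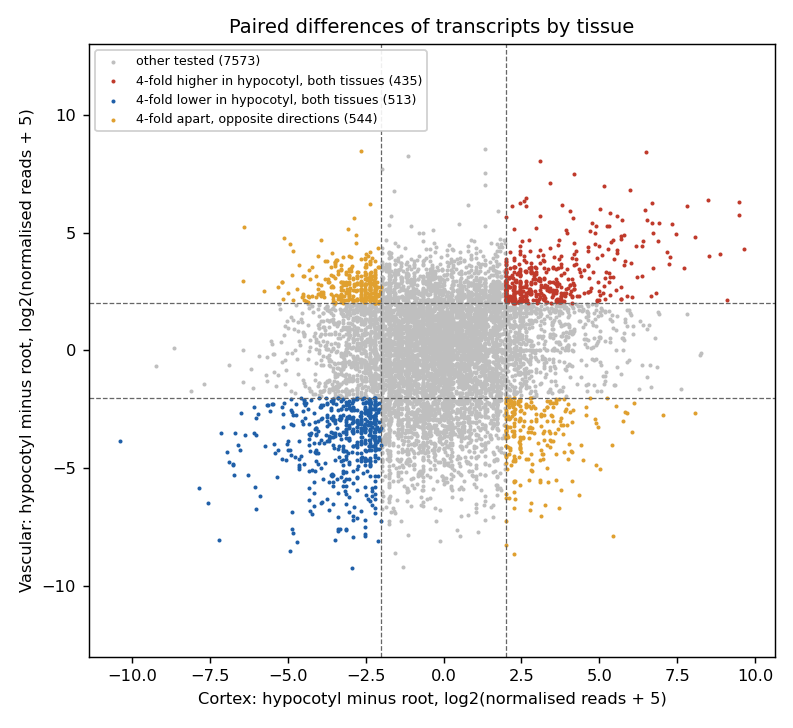
Difference between hypocotyl and root in cortex (horizontal) and in vascular tissue (vertical) for the 9065 transcripts tested, each on the log2(normalised reads + 5) scale, with dashed lines at 4-fold. The 435 transcripts higher and 513 lower in the hypocotyl in both tissues lie in the upper right and lower left corners, and the 544 with opposite directions in the other corners.

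The transcripts 4-fold apart in cortex and those 4-fold apart in vascular tissue overlapped in part. In the cortex pair 1359 transcripts were at least 4-fold higher and 1644 lower in the hypocotyl. In the vascular pair 1758 were higher and 1947 lower. Of the transcripts higher in hypocotyl cortex, 32.0% were also higher in hypocotyl vascular tissue, against 19.4% of all tested, and these made up 24.7% of those higher there. Of the transcripts lower in hypocotyl cortex, 31.2% were also lower in hypocotyl vascular tissue, against 21.5% of all tested, and these made up 26.3% of those lower there. In the opposite direction in vascular tissue were 17.1% of the transcripts higher and 18.9% of those lower in hypocotyl cortex. Some differed in a single tissue: 320 higher and 401 lower in hypocotyl cortex were within 2-fold in the vascular pair, and 452 higher and 629 lower in hypocotyl vascular tissue were within 2-fold in the cortex pair. Across the 9065 transcripts the paired differences correlated at a Pearson r of 0.181, and 1227 transcripts (13.5%) were within 2-fold in both pairs. The correlation describes these libraries, since transcripts are not independent and low values carry the coarse steps of the cortex libraries.

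The variation among the 4 libraries was divided between organ and tissue to put the organ difference in scale. Of the sum of squares of log2 values, 38.7% lay along the organ, 34.5% along the tissue and 26.8% was left over. This last share also holds any difference between the tissues in the organ effect. Noise of single libraries enters each share alike, so the organ and tissue shares are not free of it. The share left over was 33.5% among transcripts of low mean level and 22.9% among those of high mean level, in classes of equal size. The same 4-fold rule applied along the tissue gave 452 transcripts higher and 290 lower in vascular tissue than in cortex in both organs. Hypocotyl cortex and hypocotyl vascular tissue correlated at a Spearman rho of 0.229 across transcripts, and root cortex and root vascular tissue at 0.347. Between the organs the cortex libraries correlated at 0.234 and the vascular libraries at 0.236. Of the pairs that share neither organ nor tissue, hypocotyl vascular tissue with root cortex stood at 0.280, above both between-organ values and the within-hypocotyl value, and hypocotyl cortex with root vascular tissue at 0.0899. Single pairs were thus not fully ordered by shared organ or shared tissue. The mean was 0.288 for pairs of the same organ, 0.235 for the same tissue and 0.185 for neither, each over few pairs. A transcript at 10 or more in exactly 2 of the 4 libraries was in both hypocotyl libraries in 1010 cases and in both root libraries in 506. It was in both cortex libraries in 591 cases and in both vascular libraries in 625. The remaining pairs were hypocotyl cortex with root vascular tissue (346) and hypocotyl vascular tissue with root cortex (909).

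The shares of each direction varied with the mean level of the 4 libraries. The 4-fold rule used the same libraries, so class and direction were not independent, and the trend was not tested. Classes were made with the deposited scaling only, on which the split by direction depended. Transcripts were divided into a low, a middle and a high class of equal size by their mean log2 level over the 4 libraries. Higher in the hypocotyl in both tissues were 6.12% of the low class, 5.06% of the middle class and 3.21% of the high class. Lower in the hypocotyl were 2.55% of the low, 5.20% of the middle and 9.23% of the high class. Opposite directions made up 7.41% of the low class, 5.93% of the middle and 4.67% of the high class. The correlation between the paired differences was 0.0780 in the low, 0.164 in the middle and 0.252 in the high class. Against 0 reads in the other organ, the 4-fold rule is met by 4 reads in hypocotyl cortex and 14 in hypocotyl vascular tissue, against 6 in root cortex and 11 in root vascular tissue.

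The 435 transcripts higher in the hypocotyl had a median of 67.6 normalised reads (18 reads) in hypocotyl cortex and 46.9 (42 reads) in hypocotyl vascular tissue, against a median of 0 in root cortex and in root vascular tissue. Of these, 187 had no reads in either root library. At least 25 reads in both hypocotyl libraries stood behind 147 of them, and 137 had fewer than 10 reads in a hypocotyl library. The median paired difference was 3.03 in cortex and 2.85 in vascular tissue, or 3.01 and 3.39 as a log2 ratio with 3 reads in place of 0.

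The 513 transcripts lower in the hypocotyl had a median of 0 in hypocotyl cortex and 11.2 normalised reads (10 reads) in hypocotyl vascular tissue, against 62.2 (21 reads) in root cortex and 271 (191 reads) in root vascular tissue. Here 108 had no reads in either hypocotyl library, and 228 had at least 25 reads in both root libraries. The median paired difference was -2.95 in cortex and -3.52 in vascular tissue, or -2.56 and -4.01 as a log2 ratio with 3 reads in place of 0. In both directions transcripts near the 4-fold limit were common: 116 lay within 0.1 log2 units above it and 117 within 0.1 below.

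The transcripts named here had the largest of the smaller paired difference among those whose hypocotyl and root libraries did not overlap, 2 in each direction. unigene17662 stood at 447 normalised reads in hypocotyl cortex (119 reads) and 1724 in hypocotyl vascular tissue (1544 reads), against 0 in both root libraries. With 3 reads per root library as the limit, it was at least 50.4-fold higher in hypocotyl cortex and at least 406-fold higher in hypocotyl vascular tissue. The mean log2 difference was 7.47 ± 1.38 SE (limma adjusted p = 0.190, edgeR adjusted p = 0.0171). Outside the comparison it was at 1623 in the pith, from 357 to 4672 in the 4 needle and cotyledon libraries, and at 0 in developing root cortex, developing root vascular tissue and the root meristem. It thus had reads in every shoot library of the series and in none of the root.

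unigene116470 stood at 2867 in hypocotyl cortex (763 reads) and 653 in hypocotyl vascular tissue (585 reads), against 2.96 in root cortex (1 read) and 2.83 in root vascular tissue (2 reads). The cortex ratio of 969 had a 95% counting interval from 173 to 38309, and the vascular ratio of 231 one from 63.5 to 1908. The mean log2 difference was 7.44 ± 1.32 SE (limma adjusted p = 0.190, edgeR adjusted p = 0.169). The pith held 1199, the highest level outside the comparison, followed by young needle mesophyll at 980. The apical meristem held 209 and emerging needles 1.42, and the developing root and root meristem libraries were at 0.

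Of the transcripts lower in the hypocotyl, unigene29664 had 0 in hypocotyl cortex and 3.35 in hypocotyl vascular tissue (3 reads), against 728 in root cortex (246 reads) and 2190 in root vascular tissue (1546 reads). It was at least 64.6-fold lower in hypocotyl cortex, and the vascular ratio of root over hypocotyl, 654, had a counting interval from 223 to 3174. The mean log2 difference was -7.62 ± 1.40 SE (limma adjusted p = 0.190, edgeR adjusted p = 0.169). It was at 162 in developing root cortex and 84.9 in developing root vascular tissue, and at 2.61 in the root meristem. In the shoot outside the hypocotyl it did not exceed 15.8, the level in cotyledon vascular tissue.

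isotig34134 had 0 in hypocotyl cortex and 13.4 in hypocotyl vascular tissue (12 reads), against 941 in root cortex (318 reads) and 1654 in root vascular tissue (1168 reads). The mean log2 difference was -7.03 ± 1.40 SE (limma adjusted p = 0.190, edgeR adjusted p = 0.315). In the developing root it stood at 15.6 in cortex and 41.4 in vascular tissue, and it had no reads in the root meristem. An isotig is an assembled variant of a transcript, and reads of near-identical variants may have been split between entries.

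The 3 transcripts that edgeR called were unigene17662 and 2 others, named after their values were seen. unigene127440 stood at 3589 in hypocotyl cortex and 387 in hypocotyl vascular tissue, against 0 in both root libraries (edgeR adjusted p = 0.0171, limma adjusted p = 0.190). It was at least 404-fold higher in hypocotyl cortex and at least 91.2-fold higher in hypocotyl vascular tissue. unigene29570 stood at 0 in hypocotyl cortex and 1155 in hypocotyl vascular tissue, against 6681 in root cortex and 16602 in root vascular tissue (edgeR adjusted p = 0.0171, limma adjusted p = 0.190). Its cortex difference was at least 593-fold and its vascular ratio, root over hypocotyl, was 14.4 (13.5 to 15.3). Unlike the transcripts lower in the hypocotyl described above, it had no reads in the developing root or root meristem, and it reached 2800 in cotyledon vascular tissue and 884 in young needle vascular tissue.

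**Figure D2:**
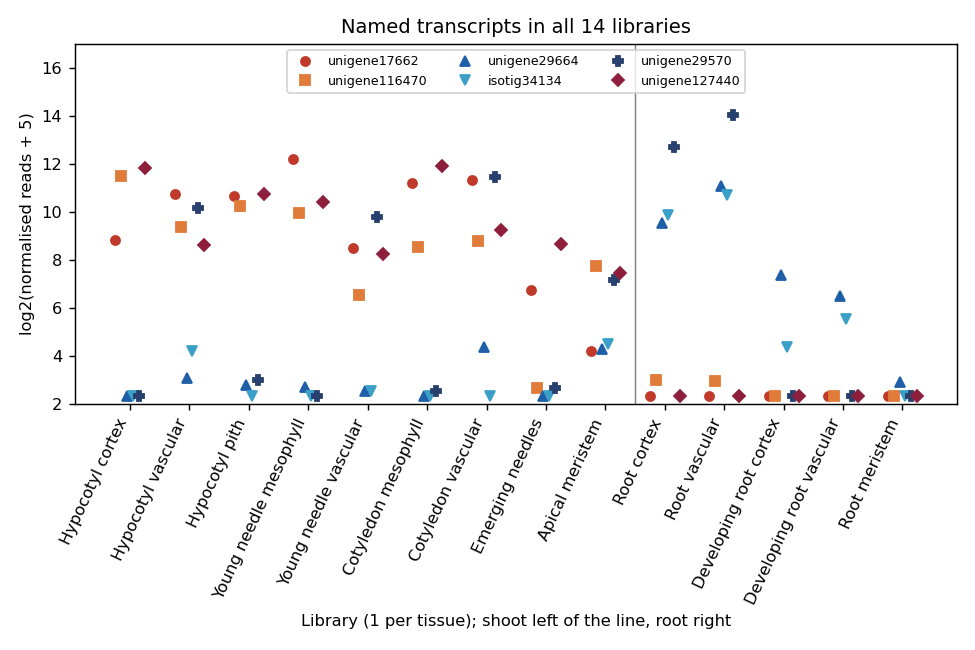
Level of the 6 named transcripts in all 14 libraries on the log2(normalised reads + 5) scale, where 0 reads plot at the bottom, with shoot libraries left of the vertical line and root libraries right of it. unigene17662, unigene116470 and unigene127440 have at most 2.96 normalised reads in any root library, and unigene29664 and isotig34134 at most 17.3 in any shoot library.

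Libraries that did not choose the transcripts were used to see whether these differed in the same direction elsewhere. Of them, young needles and cotyledons had entered the estimate of spread in the test, but not the 4-fold rule. Of the 435 transcripts higher in the hypocotyl, 362 (83.2%) had a higher mean log2 level in young needles and cotyledons than in the developing root, against 40.2% of all 9065 transcripts tested. With cotyledons alone it was 74.5%, against 38.0% of all tested. Cotyledon vascular tissue lacked reads for 6 of the 506 transcripts with at least 200 reads in hypocotyl vascular tissue, and young needle vascular tissue for 2, so overlap with hypocotyl vascular tissue was not limited to needles. Hypocotyl vascular tissue correlated most with young needle vascular tissue (Spearman rho 0.731 across transcripts). After the shared reads were taken off, needles and cotyledons together were above the developing root for 83.5% of 395 transcripts, and cotyledons alone for 80.8%. Only the proportion shared with young needle vascular tissue was taken off, so overlap with cotyledon vascular tissue remained. In the cortex pair alone, needles and cotyledons together were above for 66.9% of the 1359 transcripts higher in hypocotyl cortex. In the pith, 370 (85.1%) were above the developing root, against 51.6% of all tested, and after the shared reads were taken off it was 90.9% of 395.

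Of the 513 transcripts lower in the hypocotyl, 392 (76.4%) had a lower level in needles and cotyledons than in the developing root, against 56.8% of all tested. In the pith, 331 (64.5%) were below the developing root, against 45.7% of all tested. In the cortex pair alone, leaves were below the developing root for 72.2% of the 1644 transcripts lower in hypocotyl cortex. After the shared reads were taken off, needles and cotyledons were below the developing root for 75.7% of 534 transcripts, and the pith for 66.7%.

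The pith, as another hypocotyl tissue, carried most of the transcripts of the first group. Of the 435, 336 (77.2%) reached 10 normalised reads in pith, against 62.5% of all tested, and 24 had no reads there. The median level was 52.9 in pith and 51.3 in cotyledon mesophyll, and all 741 transcripts with at least 200 reads in cotyledon mesophyll had reads in pith, at a 5th percentile of 0.233 pith reads per mesophyll read. Reads in common between those libraries were not taken off. In the growing part of the root the same 435 transcripts had a median of 1.56 in developing root cortex, 1.04 in developing root vascular tissue and 0.652 in the root meristem. For 296 (68.0%) none of these libraries reached 10, against 30.0% of all tested.

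Most of the transcripts higher in the hypocotyl also had reads in leaves. A total of 128 (29.4%) reached 10 in all 4 needle and cotyledon libraries, against 16.1% of all tested. In 41 (9.43%) no young needle or cotyledon library reached 10, against 19.0% of all tested. In 6 of these the pith did (1.38% of the 435, against 6.42% of all tested). For 18 of the 435, none of the other 10 libraries reached 10, against 336 of all 9065 tested, a similar share.

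The transcripts lower in the hypocotyl were in part also present in the developing root. Both developing root libraries reached 10 in 261 of the 513 (50.9%), close to the 48.6% of all tested. In 123 (24.0%) neither the developing root libraries nor the root meristem reached 10, against 30.0% of all tested. The median was 15.6 in developing root cortex, 24.8 in developing root vascular tissue and 11.7 in the root meristem, against 14.1, 15.5 and 13.7 over all tested in the same libraries. In 183 (35.7%) no needle or cotyledon library reached 10, against 19.0% of all tested. In 51 of the 513 none of the other 10 libraries did, against 336 of all 9065 tested.

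**Figure D3:**
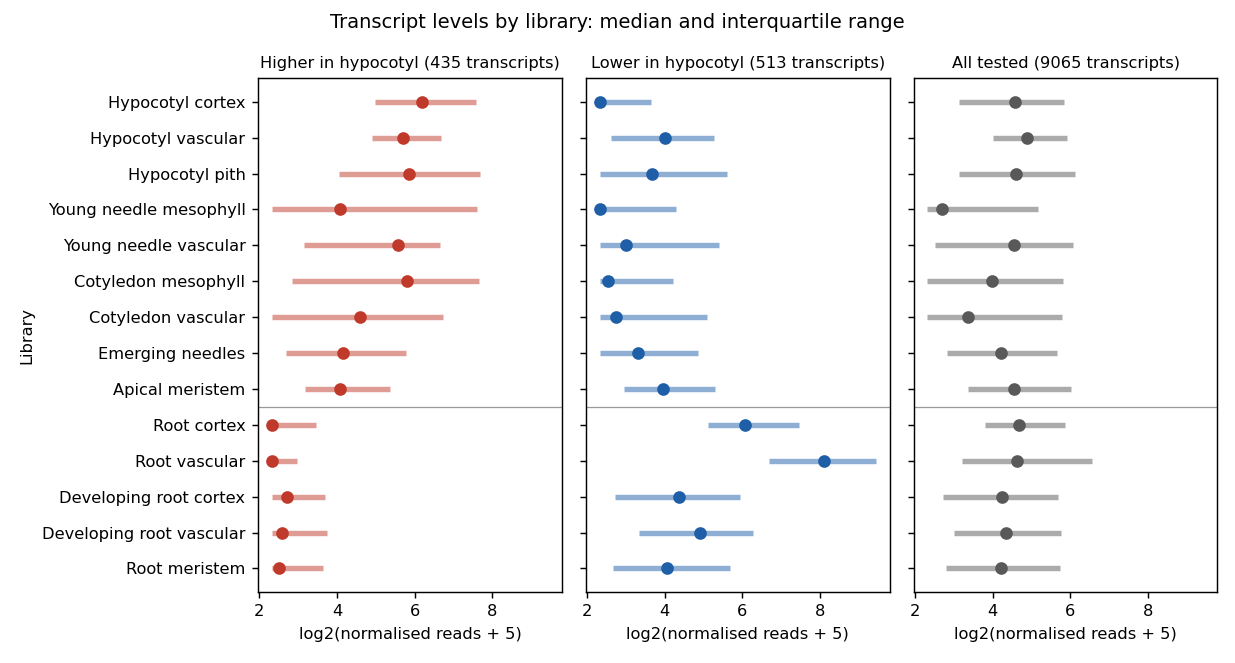
Median (point) and interquartile range (bar) of the level of transcripts in each library on the log2(normalised reads + 5) scale, for the 435 transcripts higher and the 513 lower in the hypocotyl in both tissues and for all 9065 tested, with shoot libraries above the line. The first 2 groups were chosen on the hypocotyl cortex, hypocotyl vascular, root cortex and root vascular libraries, and the pith and leaf medians of the first group lie above its developing root and root meristem medians.

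The meristems were set against each other in the same way. The apical meristem was above the root meristem for 342 (78.6%) of the 435 transcripts higher in the hypocotyl, against 56.0% of all tested, and 85.6% of 395 after the shared reads were taken off. It was above the root meristem for 230 (44.8%) of the 513 lower in the hypocotyl, and 43.6% of 534 after the shared reads were taken off. The apical meristem library also had reads for all 237 transcripts with at least 200 reads in hypocotyl cortex and for all 203 with at least 200 in root cortex, at 5th percentiles of 0.0987 and 0.0445 of their reads. It was the library most correlated with each of the cortex libraries (Spearman rho 0.479 with hypocotyl cortex and 0.514 with root cortex). The part of these reads in the meristem result was not tested.

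Presence and absence were counted on the recovered reads, over the whole table. At least 3 reads in both hypocotyl libraries and none in either root library were found for 478 transcripts, and the reverse was found for 266. At the depth of root cortex, a count of 0 allows up to 8.88 normalised reads, and in root vascular tissue 4.25, against 11.3 in hypocotyl cortex and 3.35 in hypocotyl vascular tissue. Thinned to 500000 reads, the counts were 551 and 200, and after the shared reads were taken off hypocotyl vascular tissue they were 392 and 357. Taking reads off hypocotyl vascular tissue can only lower the first count and raise the second, so the direction of this change was fixed in advance.

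Of the 478 transcripts with reads in hypocotyl and none in root, 401 had reads in pith, 440 in a needle or cotyledon library, and 211 in a developing root library. In 227 the developing root and root meristem libraries were also without reads. Of the 266 with reads in root and none in hypocotyl, 202 had reads in a developing root library, 102 in pith and 104 in a needle or cotyledon library. In 55 no other shoot library had reads, and in 11 none of the other 10 libraries did. For scale, pith had reads for 16474 of the 23493 transcripts in the whole table. Single needle and cotyledon libraries had reads for 8635 to 11913, developing root cortex for 13415 and developing root vascular tissue for 14309. The counts of the 478 and the 266 instead take any needle or cotyledon library, or either developing root library. The share of the whole table on that measure was not computed, so the values are not like for like. Whether the counts of the 478 and the 266 differ from those of other transcripts was not tested.

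Transcripts with opposite directions in the tissues fell into 2 patterns. In 233 the level was higher in hypocotyl cortex and lower in hypocotyl vascular tissue than in the root. Their medians were 56.4 in hypocotyl cortex and 3.35 in hypocotyl vascular tissue, against 2.96 in root cortex and 118 in root vascular tissue. In the other 311 the level was lower in hypocotyl cortex and higher in hypocotyl vascular tissue. Their medians were 0 in hypocotyl cortex and 41.3 in hypocotyl vascular tissue, against 41.4 in root cortex and 0 in root vascular tissue. Among the other libraries, the median of these 311 transcripts was above that of all tested in young needle vascular tissue (46.0 against 18.4), root meristem (25.4 against 13.7), emerging needles (22.7 against 13.5), developing root vascular tissue (21.7 against 15.5) and developing root cortex (17.2 against 14.1). It was below in pith (5.77 against 19.2), cotyledon vascular tissue (0.877 against 5.26), cotyledon mesophyll (0.842 against 10.9) and young needle mesophyll (0 against 1.47), and equal in the apical meristem (18.6). These 311 were chosen in part on hypocotyl vascular tissue, shared reads included, so the needle vascular median is not a separate measure. Their medians were not computed with those reads taken off. For the 233, the median was above that of all tested in young needle mesophyll (2.94 against 1.47). It was below in the remaining libraries outside the comparison, among them young needle vascular tissue (0.766 against 18.4).

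By kind of identifier the groups were close to the table. Isotigs made up 58.9% of the transcripts higher and 63.4% of those lower in the hypocotyl, against 60.0% of all tested, and unigenes made up 39.3% and 35.1%, against 38.6%.

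The counts by setting show how far the 4-fold rule depends on the value added and on the scaling.

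**Figure D4:**
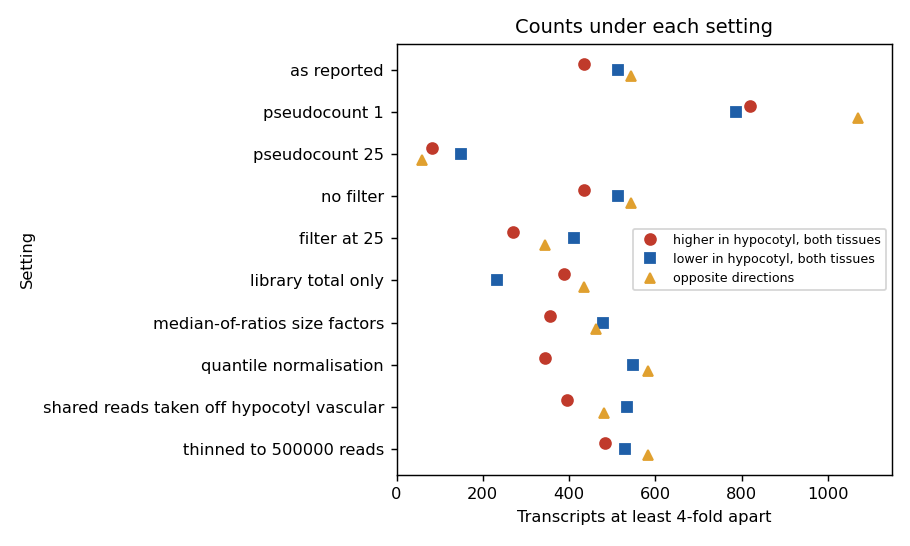
Number of transcripts at least 4-fold apart (horizontal) under each setting (vertical): circles for higher and squares for lower in the hypocotyl in both tissues, triangles for opposite directions. With library totals alone 388 are higher and 233 lower, and with 1 added in place of 5 the counts are 819 and 788.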

How the data were processed

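Per the submitters' processing notes the authors used FastQC, BWA and edgeR, with no versions. The reference assembly and the way reads were counted are not given in the sources used here. For 14 libraries and 23493 transcripts the authors deposited a normalised signal. Design choices had assumed plain CPM. The deposited signal was instead CPM of a scaled library size: divided by the value of a single read, 100% of entries came out whole to within 0.001, which gave back the reads (12128688 in all), and TMM factors computed from them differed from the deposited ones by a relative 5.22e-10 at most.

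limma 3.58.1 in R 4.3.3 was fitted to log2(value + 5) of 8 libraries (needles, cotyledons, hypocotyl, root) with organ and tissue terms and a mean trend in the prior. Pairs share a tissue name, not a seedling. Transcripts needed 10 or more in at least 2 of the 4 hypocotyl and root libraries, which favours transcripts high in an organ or a tissue. edgeR 4.0.16 and DESeq2 1.42.0 ran on the recovered reads. The limma, edgeR and DESeq2 steps were run on simulated counts with known changes between hypocotyl and root and no other organ or tissue differences. That run checked the code only, since its spread was set and not taken from these data. It does not measure power or error rates here. Transcripts were named by the smaller paired difference, 2 in each direction, plus the most abundant in each library. Comparison, lists and rules were chosen with earlier results of these data known. Alternatives changed the pseudocount, filter, scaling, libraries in the fit and test; those added after seeing the data were edgeR on 10 or 4 libraries, centred differences, a limit of 3 reads in place of the added value, and the cortex pair alone or shared reads taken off for the other libraries.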

Additional observations from a re-analysis of the deposited data

Results flagged for a closer look

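Effects of opposite sign in the tissues drew attention. A total of 233 transcripts were at least 4-fold higher in hypocotyl cortex and at least 4-fold lower in hypocotyl vascular tissue than in the root, and 311 were lower in hypocotyl cortex and higher in hypocotyl vascular tissue. Each tissue of an organ was 1 library, so the difference was not tested. After the shared reads were taken off hypocotyl vascular tissue, the counts were 206 and 275.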

How the results depend on the processing

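The count of 0 transcripts called was also 0 in 16 of 21 alternatives, among them no replicate block (no tissue term), the 4 libraries alone, 10 libraries, edgeR on 4 libraries, and the removal of shared reads. It was 6 with quantile normalisation, 3 with edgeR, 4 with edgeR on 10 libraries and 182 with DESeq2. With 1 of the 4 libraries left out it ran from 0 to 134, the highest without root vascular tissue. The labels give no replicate numbers, and pairing was by tissue.

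The counts under the 4-fold rule, higher, lower and opposite, were 819, 788 and 1070 with 1 added in place of 5, and 83, 150 and 60 with 25 added. They were 1223, 1261 and 1798 at 2-fold, and 118, 174 and 97 at 8-fold. A filter at 25 gave 271, 412 and 344, and library totals alone 388, 233 and 435. With anything under 3 reads set at 3 and no value added they were 371, 355 and 378. Other settings gave 344 to 483 higher.

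The organ share of the sum of squares was 40.0% with a filter at 25 and 35.8% with library totals. The tissue share was 33.5% with 1 added and 35.6% with that filter. The share left over was 24.4% with that filter, 28.8% with library totals and 28.7% after quantile normalisation. Mean correlations of library pairs of the same tissue, the same organ and neither were 0.235, 0.288 and 0.185. With Pearson's r they were 0.336, 0.373 and 0.271. The last was 0.127 with a filter at 25, and the second was 0.310 without shared reads.

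Asking for 10 reads left 114 transcripts in hypocotyl and not in root, and 66 the reverse. Leaves stood above the developing root for 74.5% with cotyledons only and 66.9% in the cortex pair alone, and below for 72.2% in the cortex pair alone. The direction in these libraries could not be given for called transcripts, as 0 were called. The log2 changes of the 4 transcripts named by rule kept their sign in all 21 alternatives, from 5.18 to 12.85 for unigene17662, 5.65 to 8.90 for unigene116470, -9.89 to -5.60 for unigene29664 and -8.36 to -5.36 for isotig34134. Their adjusted p ran from 0.000281, 0.000340, 0.00132 and 0.00758 in that order, all with DESeq2, to 0.855 for each. The cause of these changes was not tested. Depth limits the low values most in hypocotyl cortex.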
